A study of Mus musculus with 30 samples.

Results

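Mouse neural stem and progenitor cells (NSPCs) given crotonate were compared with NSPCs given the solvent DMSO. The members are the 8 RNA libraries, of 30 samples in the series, whose columns of the expression table carry the label of either group, 4 for crotonate and 4 for the control. The cells were taken from the forebrain of C57BL/6 embryos at E13.5 and were grown with epidermal and fibroblast growth factor and the B27 and N2 supplements. The treatment notes give passage 2 to 3, and the sample labels P1-P3. The cells received DMSO or 10 mM crotonate for 24 h. The labels name no transgene or mutation, do not give the sex of the embryos, and do not say whether the crotonate dishes also held DMSO. They number 4 replicates in each group without saying that these came from separate animals, so the p-values below measure the spread between these libraries. Of 53974 genes in the table, 14077 reached 1 TPM (a transcript abundance scaled for transcript length and library size) in at least 4 of the 8 libraries and were tested.

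Crotonate is a short unsaturated fatty acid. Cells can join it to coenzyme A, and the crotonyl-CoA so made is both an intermediate of fatty acid oxidation and the donor of the crotonyl group that acyltransferases such as p300 place on lysines of histones. Crotonyl-lysine (Kcr) sits near the starts of active genes together with acetyl-lysine (Kac), is read by YEATS and double PHD finger domains, and is removed by class I histone deacetylases and by some sirtuins. In the embryonic forebrain NSPCs divide along the ventricle and give rise to neurons and later to glia, and in culture the growth factors keep them dividing. The comparison asks which transcripts of such cells differ after a day with crotonate.

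The label of the cells was checked against marker lists. All 28 genes of the radial glia and neural stem list were tested, and their summed level was 11382 to 11884 TPM in the DMSO libraries and 10744 to 11599 TPM with crotonate. Sox2, a transcription factor of neural stem cells, stood at 262, 277, 263 and 290.5 TPM with DMSO and 295, 293, 271 and 288 TPM with crotonate, and its groups overlap. The progenitor markers Vim, Fabp7, Sox1, Pax6 and Hes5 overlapped too, with Pax6 at 17.9 to 29.1 TPM and Hes5 at 5.15 to 16.1 TPM in the 8 libraries. Nes instead fell without overlap, with 346 to 396 TPM with DMSO and 226 to 277 TPM with crotonate. Markers of blood vessels were near 0, with sums over 15 genes of 4.08 to 7.59 and 6.67 to 8.602 TPM, and Pecam1 and Cdh5 lay under 0.5 TPM in all 8 libraries. The 15 microglia and macrophage markers summed to 5.68 to 8.91 TPM with DMSO and 4.52 to 12.2 TPM with crotonate. The 11 erythroid markers summed to 0.409 to 1.65 TPM with DMSO and 5.82 to 7.79 TPM with crotonate, with no overlap. Most of that difference was Epor, the erythropoietin receptor, which rose from 0.434 ± 0.13 to 5.197 ± 0.887 TPM and passed the filter only through the crotonate libraries, while 5 erythroid genes, among them Hbb-bs and Gata1, were listed at 0 throughout. The 18 astrocyte markers summed to 1555 to 1908 TPM with DMSO and 1754 to 2164 TPM with crotonate, with Gjb6 listed at 0, and the 17 markers of the oligodendrocyte lineage to 1796 to 1998 TPM with DMSO and 1981 to 2256 TPM with crotonate, with Mog and Mobp under 0.5 TPM in all 8 libraries. In both sums the ranges of the groups overlap. Sums for pericyte, choroid plexus and Cajal-Retzius markers were at most 37.1 TPM in any library, and the part of other cell types in the results was not tested. The 16 neuron markers summed to 927 to 1004 TPM with DMSO and 827 to 896 TPM with crotonate, and Gap43 and Map2, which both fell, made up most of that sum. The table gives no read counts, so the depth of the libraries is not known. Libraries of a group correlated across genes at 0.983 or more, and libraries of different groups at 0.962 to 0.969.

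A large share of the expressed genes differed between the groups, and before any rescaling of the libraries more genes rose than fell. In limma's test with Benjamini-Hochberg adjustment, 6769 of 14077 genes (48.1%) passed an adjusted p of 0.05, 4448 of them (31.6%) higher and 2321 (16.5%) lower with crotonate. The rises were the larger changes. By at least 2-fold on the log2(TPM + 1) scale 887 genes rose and 16 fell, and by at least 4-fold 88 rose and 3 fell. The median log2 difference was 0.54 for genes that rose, -0.29 for genes that fell and 0.079 for all genes tested. The division by direction depends on the scaling: with each library divided by its median ratio to the others, 3599 genes rose and 3520 fell, and the share of rises among the calls went from 65.7% to 50.6%. After quantile normalization falls outnumbered rises, with 3006 higher and 3689 lower genes (44.9% of the calls higher). All 2321 falls remained under median-of-ratios scaling, 3599 of the 4448 rises did, and no called gene changed its direction and passed the threshold. All 4 crotonate libraries lay above all 4 DMSO libraries for 4177 genes (29.7%) and below them for 2183 (15.5%), 45.2% of tested genes in either direction.

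**Figure D1:**
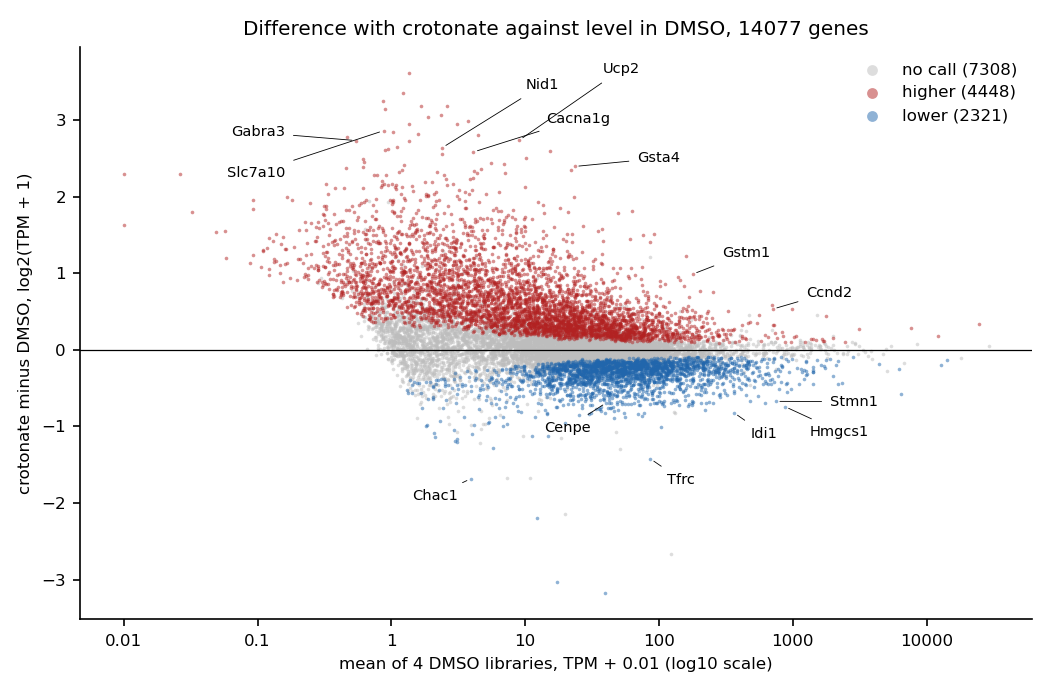
Each point is 1 of 14077 tested genes, with its mean in the 4 DMSO libraries (horizontal, TPM + 0.01, log scale) and its difference crotonate minus DMSO on log2(TPM + 1) (vertical). The 4448 genes that rose (red) reach larger differences and lie at lower levels than the 2321 that fell (blue), and grey points passed no call.

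Genes of low abundance rose far more often than they fell, and abundant genes fell more often than they rose. With genes binned by their mean over all 8 libraries, 40.9% of the 3169 genes under 5 TPM rose and 2.78% fell, while among the 1581 genes of at least 100 TPM 19.2% rose and 37.9% fell. The filter bears on the lowest genes, since a gene under 1 TPM in every DMSO library entered the test only if it reached 1 TPM in all 4 crotonate libraries. There were 352 such genes, which had to differ to be tested and of which 345 rose, and 9 in the opposite position. Without both kinds, a choice made after seeing the data, 33.9% of 2808 genes under 5 TPM rose and 2.81% fell. In the gene lists below, members that reached the test in this way are given as having passed the filter through crotonate alone. Genes at 1 TPM in only some DMSO libraries, such as Slc7a10, Scn3a, Gabra3 and Tgfb1, also needed crotonate libraries to be tested. They are not so marked, and the filter favoured their rise too. Of 728 tested genes with a DMSO mean under 1 TPM, 72.0% rose and 0% fell. Counts of each list stand beside the shares over all tested genes, 31.6% higher and 16.5% lower. After median-of-ratios scaling those shares were 25.6% and 25.0%. The number of genes that reached 1 TPM was 13603, 13478, 13444 and 13696 in the DMSO libraries and 14595, 14419, 14415 and 14388 with crotonate, a mean difference of 899 genes (two-sided exact permutation test over 4 against 4 libraries, p = 0.0286, the smallest that this design allows, and 0.0571 after adjustment over 6 library measures). With libraries exchanged only within same-numbered pairs, the exact permutation p was 0.125, the smallest that 4 pairs allow. The groups do not overlap in this number. The share of TPM in mitochondrially encoded genes was 8.92% ± 0.165 with DMSO and 9.12% ± 0.196 with crotonate (SD, n = 4; exact permutation p = 0.171), and that in ribosomal protein genes 10.1% ± 0.215 and 10.3% ± 0.168 (p = 0.229). Fewer cells that hold a transcript and less of it in each cell cannot be told apart in these bulk libraries.

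Among the genes with the largest rises was an amino acid carrier. Slc7a10, a carrier of neutral amino acids (chromosome 7, 35186095 to 35201116 on GRCm38), measured 1.28, 0.549, 0.905 and 0.723 TPM with DMSO and 9.77, 12.5, 13.01 and 14.7 TPM with crotonate, a log2 difference of 2.86 (SE 0.15). Every crotonate library lay far above every DMSO library, and the rule that named the gene took only genes without overlap. Meg3, an imprinted noncoding RNA, went from 3.07 ± 1.14 to 29.7 ± 4.03 TPM (SD, n = 4 in each group here and below), and its neighbour Dlk1, a Notch-like membrane protein, from 5.17 ± 1.28 to 17.2 ± 4.13 TPM. Tpm2, a tropomyosin of contractile filaments, went from 2.59 ± 0.697 to 31.2 ± 0.769 TPM. It had neither a Kcr nor a Kac peak within 1 kb of its start in the DMSO peak lists and both in the crotonate lists, and its RefSeq promoter is shown here in lower case, without a marked motif, as the start with the strongest rise among those that gained both peaks and have a promoter in the table:
Tpm2, chr4:43523505-43523804, minus strand: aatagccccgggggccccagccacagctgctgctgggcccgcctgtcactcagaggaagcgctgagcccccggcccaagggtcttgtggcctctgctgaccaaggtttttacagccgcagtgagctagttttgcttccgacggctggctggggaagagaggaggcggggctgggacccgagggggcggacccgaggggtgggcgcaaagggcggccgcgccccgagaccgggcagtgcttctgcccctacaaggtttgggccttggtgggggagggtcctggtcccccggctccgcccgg

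Some of the largest shifts in transcript mass were modest as folds. Ccnd2, which encodes cyclin D2 of the G1 phase, rose from 710.4 ± 9.24 to 1027 ± 23.4 TPM. Ftl1, the light chain of the iron store ferritin, rose from 1762 ± 34.3 to 2397 ± 72.3 TPM, Ckb, a creatine kinase of brain, from 7658 ± 592 to 9309.7 ± 701 TPM, and Gstm1, a glutathione transferase, from 179 ± 17.1 to 355 ± 4.77 TPM. On the other side, Tuba1a and Tuba1b, alpha-tubulins, fell from 2339 ± 71.8 to 1726 ± 98.7 TPM and from 1415 ± 62.2 to 1036 ± 65.2 TPM, and the chromatin protein genes Hmgb1 and Hmgn2 from 1116 ± 45.8 to 817 ± 37.5 TPM and from 906 ± 30.7 to 621 ± 50.4 TPM. Summed over all called genes, TPM rose by 55214 and fell by 55722, which must nearly balance because TPM sums to a fixed total. Of mitochondrially encoded genes mt-Co1 rose while mt-Nd1, mt-Nd2 and mt-Cytb fell. Mitochondrial genes have copies in the nuclear genome, and how reads were divided among them is not given in the sources used here, so these values are uncertain.

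**Figure D2:**
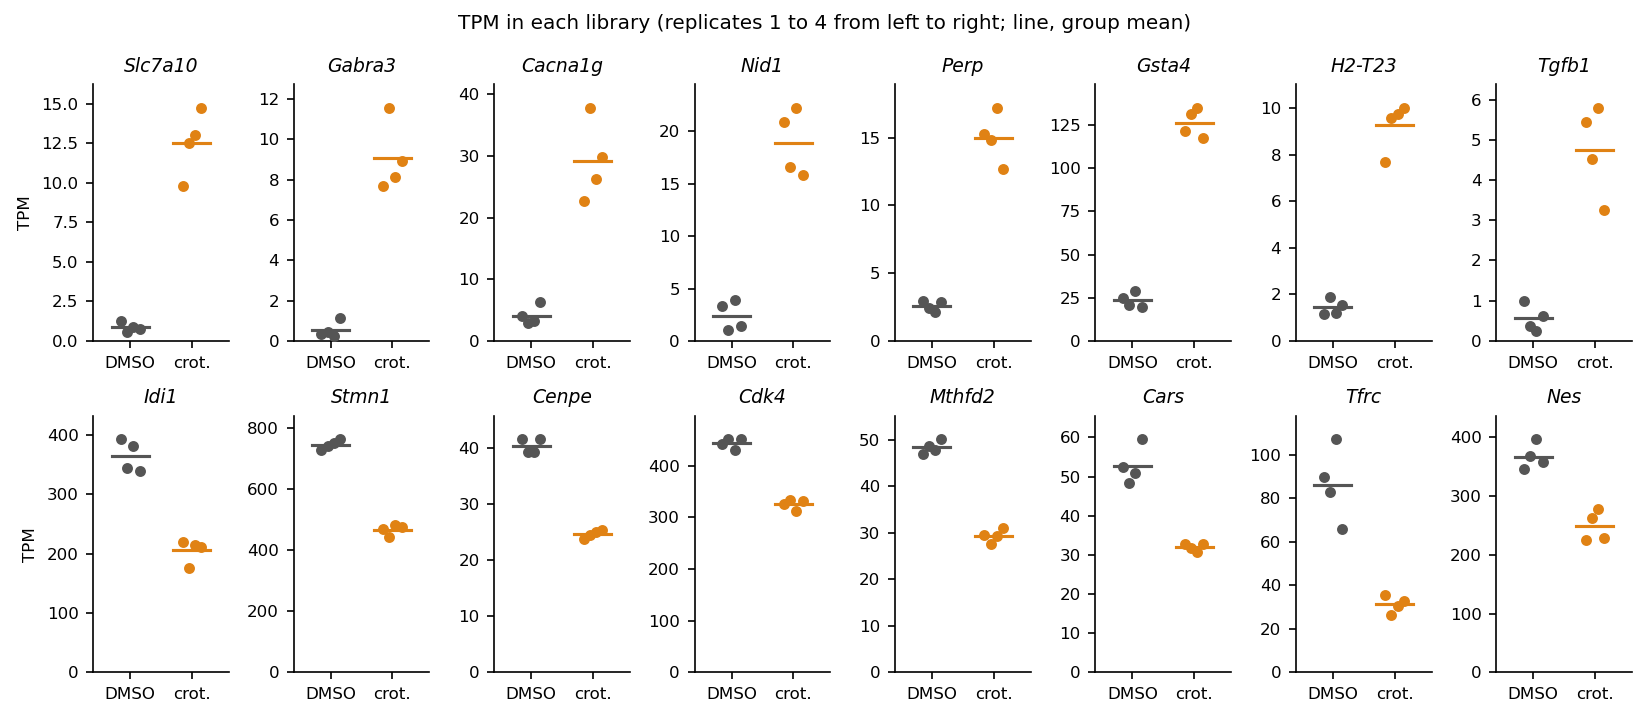
TPM of 16 genes in each library, with 4 DMSO libraries (grey) and 4 crotonate libraries (orange) in each panel, replicates 1 to 4 from left to right, group means as lines and every vertical axis starting at 0. The genes come from those named by their values, so the lack of overlap in all 16 panels reflects that choice. Over all tested genes 45.2% had no overlap. The upper row holds genes that rose and the lower row genes that fell.

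Most genes of the cell division cycle fell. The steps of the cycle are served by separate groups of genes, those that license and copy DNA in S phase and those that build the spindle and divide the chromosomes in mitosis. Of the genes of the G1/S transition and origin licensing, 0 of 35 rose and 31 fell, with a median log2 difference of -0.44, beside 16.5% of all tested genes that fell. Lig1, the ligase that joins Okazaki fragments, measured 129, 131, 137 and 142 TPM with DMSO and 85.8, 81.5, 84.8 and 87.4 TPM with crotonate. Gins1, a subunit of the replicative helicase, measured 43.9, 43.3, 43.5 and 38.6 and 26.5, 25.6, 26.4 and 27.1 TPM. In neither gene do the groups overlap. List members here and below were mostly named for a small adjusted p, so the separation of their groups reflects that choice. In 45.2% of all tested genes the groups did not overlap. Of the genes that supply nucleotides, 0 of 19 rose and 17 fell, with a median log2 difference of -0.34: Rrm1, the large subunit of ribonucleotide reductase, fell from 188 ± 4.301 to 126 ± 4.58 TPM and Mthfd2, a mitochondrial folate enzyme, from 48.4 ± 1.36 to 29.3 ± 1.44 TPM.

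Most mitotic genes fell as well, beside 16.5% of all tested genes that fell and 31.6% that rose. Of the kinetochore and spindle checkpoint genes, 1 of 32 rose and 28 fell, with a median log2 difference of -0.52, and after median-of-ratios scaling 0 were higher, and of the spindle motors and mitotic kinases, 0 of 33 rose and 33 fell, with a median log2 difference of -0.61. Cenpe, a kinesin that carries chromosomes to the spindle equator, measured 41.6, 39.2, 39.4 and 41.6 TPM with DMSO and 23.8, 24.5, 24.97 and 25.4 TPM with crotonate, a log2 difference of -0.69 (SE 0.045). Cenpq, a protein of the inner kinetochore, measured 48.6, 45.02, 46.9 and 44.3 and 26.9, 24.4, 25.8 and 27.3 TPM. Both genes fell in every library beyond the range of the controls. Of the cyclins, Cdc25 phosphatases and subunits of the anaphase promoting complex, 1 of 20 rose and 18 fell, with a median log2 difference of -0.56: Ccnb1 and Ccna2, the mitotic cyclins, fell from 206 ± 0.187 to 127 ± 8.77 TPM and from 238 ± 6.72 to 149 ± 9.22 TPM. The 2 mitotic genes that rose were Zwint, a kinetochore protein, from 315 ± 9.81 to 353 ± 9.24 TPM, and Pttg1, which encodes securin, the inhibitor of sister chromatid separation, from 46.8 ± 9.19 to 82.4 ± 9.63 TPM. The call of Zwint ended under median-of-ratios scaling. Of condensin and cohesin genes 0 of 19 rose and 14 fell, with a median log2 difference of -0.40, and of homologous recombination and Fanconi repair genes 0 of 27 rose and 15 fell, with a median log2 difference of -0.29.

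The promoters of these genes were searched for known cell cycle elements. The letters TTTGAA, the cell cycle homology region bound by the DREAM and MuvB complexes, occurred on either strand in 77.4% of the 31 RefSeq promoters of spindle motors and mitotic kinases and in 14 of the 35 kinetochore promoters, beside 11.8% of the 13405 promoters of tested genes and 17.9% of all 32851 promoters of the same length. The CCAAT box, searched as CCAAT, occurred in 70.97% and 74.3% beside 37.9% of tested genes. The E2F letters TTTCCCGC and TTTGGCGC occurred in 18.2% and 21.2% of the 33 promoters of the G1/S list, beside 1.98% and 0.925% of tested genes. Over all genes that fell, TTTGAA stood in 14.8% of promoters, and over all that rose in 10.5%. These shares describe the promoters, which were listed for their function, and a match is not a measured binding site. Cenpa, the histone H3 variant of centromeres, Aurka, a spindle kinase, and Mcm3, a subunit of the replicative helicase, are shown as examples chosen after their values were seen. They fell from 222 ± 29.6 to 127 ± 8.73 TPM, from 81.3 ± 3.37 to 51.7 ± 2.16 TPM and from 142 ± 9.12 to 102 ± 4.32 TPM. In Cenpa and Aurka the capitals mark TTTGAA and CCAAT or its reverse complement, and in Mcm3 both E2F forms (RefSeq, GRCm38.p6, from 250 bases before to 50 after the start, 5′ to 3′):
Cenpa, chr5:30666636-30666935, plus strand: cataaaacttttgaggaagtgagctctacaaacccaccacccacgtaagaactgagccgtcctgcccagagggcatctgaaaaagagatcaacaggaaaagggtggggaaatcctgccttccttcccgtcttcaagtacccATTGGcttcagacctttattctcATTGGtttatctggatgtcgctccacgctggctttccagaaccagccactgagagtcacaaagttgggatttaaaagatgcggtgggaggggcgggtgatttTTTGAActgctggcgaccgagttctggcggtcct
Aurka, chr2:172370521-172370820, minus strand: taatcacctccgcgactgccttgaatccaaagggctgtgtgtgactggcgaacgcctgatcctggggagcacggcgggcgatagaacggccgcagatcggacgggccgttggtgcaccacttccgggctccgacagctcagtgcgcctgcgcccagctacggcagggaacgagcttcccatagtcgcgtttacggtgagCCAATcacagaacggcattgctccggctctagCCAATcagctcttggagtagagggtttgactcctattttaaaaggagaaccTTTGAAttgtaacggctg
Mcm3, chr1:20820263-20820562, minus strand: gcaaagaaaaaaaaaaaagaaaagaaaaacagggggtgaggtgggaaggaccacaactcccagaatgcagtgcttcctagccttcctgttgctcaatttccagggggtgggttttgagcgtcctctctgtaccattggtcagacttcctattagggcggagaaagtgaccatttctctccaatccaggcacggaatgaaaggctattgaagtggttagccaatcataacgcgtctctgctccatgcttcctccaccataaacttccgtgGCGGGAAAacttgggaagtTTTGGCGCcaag

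**Figure D3:**
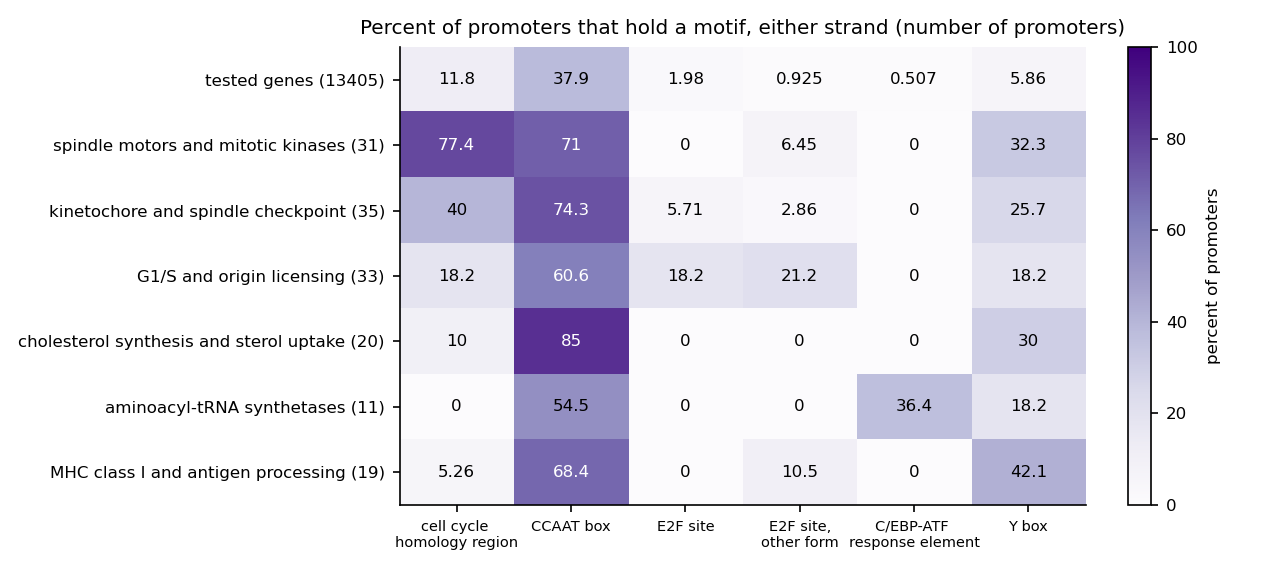
Percent of RefSeq promoters, from 250 bases before to 50 after the start, that hold each motif on either strand (columns), for the promoters of all tested genes and of 6 gene lists (rows, number of promoters in brackets). The cell cycle homology region reaches 77.4% in the spindle list and the C/EBP-ATF response element 36.4% in the tRNA synthetase list, beside 11.8% and 0.507% of tested genes; the Y box contains a CCAAT box.

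Regulators of G1 moved in both directions. Cyclin D2 rose as given above, whereas Ccnd1, which encodes cyclin D1 and was the most abundant cyclin, stood at 1349, 1383, 1428 and 1339.6 TPM with DMSO and 1286, 1483, 1381 and 1345 TPM with crotonate, a log2 difference of -0.0027 with a 95% interval from -0.10 to 0.10. Cdk4 and Cdk2, the kinases of G1 and of S phase entry, fell from 443 ± 9.801 to 325 ± 9.88 TPM and from 62.3 ± 2.204 to 43.2 ± 2.59 TPM. The 7 inhibitors of these kinases divided, with 4 that rose and 3 that fell, beside 31.6% and 16.5% of all tested genes. Cdkn2a, the locus of p16 and p19Arf, measured 33.01, 37.7, 39.2 and 36.7 TPM with DMSO and 62.1, 72.3, 75.8 and 72.3 TPM with crotonate. Its neighbour Cdkn2b, which encodes p15, measured 29.96, 26.3, 26.5 and 27.1 and 50.7, 53.5, 55.8 and 40.3 TPM. Both rose with no overlap of the groups. Cdkn1a, which encodes p21, rose from 480.0 ± 3.35 to 615 ± 13.55 TPM and Cdkn1c, which encodes p57, from 7.29 ± 1.91 to 11.6 ± 3.81 TPM with overlap of the groups. Cdkn2c, Cdkn1b and Cdkn2d, which encode p18, p27 and p19, fell to 0.607, 0.847 and 0.828 of the DMSO mean. Of the retinoblastoma family, Rb1 and Rbl2 rose 1.14-fold and 1.21-fold and Rbl1 fell to 0.87 of the DMSO mean. The calls of Rb1, Rbl2 and Cdkn1c ended under median-of-ratios scaling.

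Of the target genes of p53, 13 of 22 rose and 2 fell, with a median log2 difference of 0.20, and after median-of-ratios scaling 4 were lower. The shares over all tested genes were 31.6% higher and 16.5% lower. Perp, a membrane protein of desmosomes and a p53 target, measured 2.98, 2.39, 2.14 and 2.84 TPM with DMSO and 15.3, 14.8, 17.2 and 12.7 TPM with crotonate, and Pmaip1, which encodes the cell death protein Noxa, went from 19.6 ± 2.25 to 41.4 ± 2.42 TPM. The groups of Perp do not overlap. Trp53 itself fell from 115 ± 3.28 to 88.4 ± 3.14 TPM. Of 35 canonical histone genes, whose transcripts lack long poly(A) tails, 12 reached the level for testing, and Hist1h2bc alone was called, from 31.1 ± 5.37 to 38.7 ± 3.67 TPM, a call that ended under median-of-ratios scaling.

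Most genes of sterol synthesis fell, beside 16.5% of all tested genes that fell and 31.6% that rose. Of the genes of cholesterol synthesis and sterol uptake, 0 of 24 rose and 20 fell, with a median log2 difference of -0.44. Idi1, an isomerase of the mevalonate pathway, measured 393, 344, 381 and 339 TPM with DMSO and 220.5, 176, 214 and 212 TPM with crotonate. Hmgcs1, an early enzyme of that pathway, measured 965, 803, 881 and 842 and 547, 451, 532 and 558 TPM. The groups do not overlap in either gene. Srebf2, the transcription factor that drives the pathway, had a log2 difference of -0.033 and passed no call, but was called lower, at -0.12, after median-of-ratios scaling. It was named after its value was seen. Of sterol efflux genes and targets of the liver X receptors, 7 of 11 rose and 0 fell (2 passed the filter through crotonate alone), with a median log2 difference of 0.25: Lpl, a lipase, rose from 3.66 ± 0.0531 to 12.4 ± 0.469 TPM and Abcg1, a sterol exporter, from 0.385 ± 0.0267 to 2.69 ± 0.908 TPM. Apoe, the carrier of lipids between glia and neurons, had 407 ± 92.9 TPM with DMSO and 452 ± 30.01 TPM with crotonate and passed no call.

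Hmgcs1 had a Kcr peak within 1 kb of its start in the DMSO list and none in the crotonate list, while a Kac peak was in both. Its promoter is shown because it holds, in capitals, the sterol regulatory letters TCACNCCAC (found in 1 of the 20 promoters of the list and 1.12% of those of tested genes) and 4 CCAAT boxes read on the other strand (CCAAT in 85.0% of the list's promoters):
Hmgcs1, chr13:119690101-119690400, plus strand: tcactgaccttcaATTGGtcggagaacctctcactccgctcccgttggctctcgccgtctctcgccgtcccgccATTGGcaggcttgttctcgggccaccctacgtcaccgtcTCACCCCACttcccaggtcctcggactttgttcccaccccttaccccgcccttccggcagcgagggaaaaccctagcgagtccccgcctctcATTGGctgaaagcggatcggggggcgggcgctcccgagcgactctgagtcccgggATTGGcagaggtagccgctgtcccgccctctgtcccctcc

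Of the fatty acid synthesis genes, 4 of 18 rose and 7 fell, with a median log2 difference of -0.11. The shares over all tested genes were 31.6% and 16.5%. Fasn, the fatty acid synthase, fell from 282 ± 21.4 to 187 ± 20.1 TPM and Acly, which makes cytosolic acetyl-CoA, from 220.4 ± 6.03 to 161 ± 4.41 TPM. Elovl2 and Elovl7, elongases of long-chain fatty acids, rose from 21.005 ± 1.05 to 37.1 ± 1.08 TPM and from 2.48 ± 0.389 to 5.31 ± 0.717 TPM. Of fatty acid oxidation genes, 19 of 27 rose and 3 fell, with a median log2 difference of 0.30, and after median-of-ratios scaling 5 were lower. Hadh, which acts on short-chain acyl-CoA, rose from 68.7 ± 2.49 to 98.1 ± 3.92 TPM, Slc25a20, the carrier of acylcarnitines into mitochondria, from 29.3 ± 2.31 to 46.2 ± 2.19 TPM, and Pex11a, a peroxisome protein, from 6.202 ± 0.973 to 12.8 ± 1.11 TPM, whereas Hadhb, of the mitochondrial trifunctional protein, fell from 123 ± 2.01 to 101 ± 4.84 TPM.

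The enzymes that form and remove crotonyl-CoA were tested as a list of their own, of which 9 of 16 rose and 3 fell (1 passed the filter through crotonate alone), with a median log2 difference of 0.23. Among all tested genes 31.6% rose and 16.5% fell. Acss3, a mitochondrial short-chain acyl-CoA synthetase, rose from 0.0779 ± 0.0364 to 1.36 ± 0.184 TPM and Acads, the short-chain dehydrogenase that forms crotonyl-CoA from butyryl-CoA, from 36.4 ± 2.47 to 51.8 ± 2.599 TPM. Cdyl2, a homologue of the crotonyl-CoA hydratase Cdyl, rose from 2.16 ± 0.26 to 4.74 ± 0.428 TPM. Echs1, the mitochondrial hydratase that consumes crotonyl-CoA, fell from 72.9 ± 2.21 to 64.3 ± 2.45 TPM, and Acss2, the synthetase that can make crotonyl-CoA in the cytosol and nucleus, had a log2 difference of -0.30 and fell. Of carriers and helpers for monocarboxylate entry, Emb, the partner of a monocarboxylate carrier, rose from 5.77 ± 0.744 to 12.7 ± 0.783 TPM, and Bsg, its homologue, from 281 ± 7.77 to 320.1 ± 4.07 TPM.

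Before rescaling, most writers and readers of acyl marks passed no call. Of all tested genes 48.1% were called, 31.6% higher and 16.5% lower. Of lysine acyltransferases 1 of 14 rose and 4 fell, and after median-of-ratios scaling 0 were higher and 8 were lower. Ep300, the acyltransferase best known for crotonylation, stood at 25.2, 26.7, 31.5 and 29.9 TPM with DMSO and 26.9, 32.3, 32.02 and 31.1 TPM with crotonate, a log2 difference of 0.11 with a 95% interval from -0.08 to 0.30, and passed no call. Kat5, the catalytic subunit of NuA4, fell from 62.1 ± 6.33 to 44.9 ± 3.54 TPM. Of the sirtuins 4 of 7 rose and 1 fell: Sirt6 rose from 11.8 ± 2.27 to 22.9 ± 2.88 TPM, Sirt5, which removes acidic acyl groups, from 8.74 ± 1.35 to 13.3 ± 1.62 TPM, and Sirt1 fell from 13.3 ± 0.783 to 10.4 ± 1.62 TPM. Of class II and IV deacetylases 2 of 7 rose and 3 fell, with Hdac11 the largest rise, from 5.58 ± 0.904 to 10.04 ± 1.01 TPM. Of crotonyl-lysine readers 0 of 12 rose and 3 fell, and after median-of-ratios scaling 9 were lower, and none of the 4 YEATS genes in it, Mllt1, Mllt3, Yeats2 and Yeats4, was called, although Mllt1, Yeats2 and Yeats4 were called lower after that scaling.

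Among BET bromodomain and P-TEFb genes 3 of 10 rose and 4 fell, beside 31.6% and 16.5% of all tested genes. Brd2 and Brd3, which bind acetyl-lysine, fell from 165 ± 6.77 to 134 ± 3.07 TPM and from 51.4 ± 1.77 to 38.6 ± 1.38 TPM, and Hexim1, the inhibitor of the elongation kinase P-TEFb, rose from 24.3 ± 0.697 to 30.4 ± 0.768 TPM, with Larp7, another partner of the same inhibitory complex, falling from 61.7 ± 2.91 to 47.03 ± 1.69 TPM. Of Polycomb and DNA methylation genes 4 of 23 rose and 7 fell, with a median log2 difference of -0.012. Dnmt1 and Uhrf1, which copy DNA methylation at replication, fell from 137 ± 5.89 to 97.9 ± 1.98 TPM and from 143 ± 16.2 to 99.7 ± 5.18 TPM, and Ezh2, the H3K27 methyltransferase, from 169 ± 7.93 to 128 ± 4.92 TPM. Cbx7 and Pcgf2, subunits of PRC1, rose from 3.26 ± 0.358 to 8.62 ± 1.89 TPM and from 7.78 ± 1.11 to 15.6 ± 1.39 TPM. Of class I deacetylases and corepressor subunits 9 of 24 rose and 9 fell, and after median-of-ratios scaling 4 were higher. Mta3, a NuRD subunit, rose from 16.6 ± 1.15 to 34.95 ± 3.24 TPM and Mbd3, another NuRD subunit, fell from 211 ± 4.55 to 150.3 ± 5.01 TPM.

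Most genes that charge tRNAs and build ribosomes fell, while most ribosomal protein genes passed no call. Among all tested genes 31.6% rose and 16.5% fell. Of the aminoacyl-tRNA synthetases 0 of 19 rose and 14 fell, with a median log2 difference of -0.24. Cars, which charges cysteine tRNA, measured 52.4, 48.4, 50.9 and 59.5 TPM with DMSO and 32.9, 31.7, 30.7 and 32.7 TPM with crotonate, with no overlap. Of the integrated stress response and serine synthesis genes, 4 of 27 rose and 12 fell, with a median log2 difference of -0.21. Chac1, which degrades glutathione and is driven by ATF4, measured 3.5997, 3.18, 3.19 and 5.66 and 0.569, 0.414, 0.23 and 0.844 TPM and was among the 16 genes that fell at least 2-fold; it was named after its values were seen. Psat1, an enzyme of serine synthesis, fell from 302 ± 6.12 to 224 ± 6.41 TPM, while Gdf15, a stress-induced secreted factor, rose from 13.6 ± 2.06 to 21.002 ± 3.01 TPM. The letters TGATGCAA, the element bound by ATF4 with C/EBP proteins, stood in 4 of 11 synthetase promoters (36.4%) beside 0.507% of those of tested genes. The promoter of Yars, which charges tyrosine tRNA and fell from 72.8 ± 4.76 to 53.3 ± 3.64 TPM, is shown with that element in capitals, just after the start:
Yars, chr4:129189653-129189952, plus strand: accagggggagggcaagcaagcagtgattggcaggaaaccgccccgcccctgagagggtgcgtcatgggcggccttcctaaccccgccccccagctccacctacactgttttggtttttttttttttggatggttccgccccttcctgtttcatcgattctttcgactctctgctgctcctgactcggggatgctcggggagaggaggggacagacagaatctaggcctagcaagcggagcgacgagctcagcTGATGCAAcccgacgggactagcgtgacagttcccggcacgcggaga

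Of ribosome biogenesis genes and Myc targets 0 of 30 rose and 22 fell, with a median log2 difference of -0.26. Over all tested genes 31.6% rose and 16.5% fell. Npm1, the nucleolar protein nucleophosmin, fell from 1406 ± 35.4 to 1151 ± 25.996 TPM and Ncl, which encodes nucleolin, from 462 ± 27.1 to 356 ± 6.304 TPM. Myc itself had a log2 difference of 0.094 and passed no call, named after its value was seen. Of the 41 cytosolic ribosomal protein genes 6 of 41 rose and 0 fell, with a median log2 difference of 0.031, and after median-of-ratios scaling 1 was higher and 9 were lower, so their direction rests on the scaling. Of proteasome subunits 0 of 31 rose and 11 fell, with a median log2 difference of -0.079, and after median-of-ratios scaling 24 were lower. Of lysosome and autophagy genes 19 of 36 rose and 4 fell, with a median log2 difference of 0.23, and after median-of-ratios scaling 10 were lower: Ctsz, a lysosomal protease, measured 18.7, 20.6, 17.1 and 20.4 TPM with DMSO and 51.5, 53.9, 53.6 and 56.1 TPM with crotonate, and Lipa, the lysosomal lipase, rose from 12.01 ± 0.467 to 25.9 ± 0.685 TPM. The groups of Ctsz do not overlap. Lamp1, an abundant lysosomal membrane protein, fell from 327 ± 7.46 to 285 ± 9.14 TPM.

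Defences against reactive compounds rose in part. Of glutathione, metallothionein and NRF2 target genes, 14 of 29 rose and 4 fell, with a median log2 difference of 0.16. Over all tested genes 31.6% rose and 16.5% fell. Gsta4, a transferase that clears reactive aldehydes, measured 24.9, 20.7, 28.6 and 19.6 TPM with DMSO and 121, 131, 135 and 117 TPM with crotonate, a log2 difference of 2.39 (SE 0.11). All crotonate libraries lay far above the DMSO range. Gstp1, another transferase, rose from 254 ± 14.2 to 429.9 ± 11.2 TPM and Nfe2l2, which encodes NRF2, from 99.7 ± 2.99 to 139.6 ± 4.41 TPM. The NRF2 targets Slc7a11 and Hmox1 had log2 differences of 0.12 and -0.08 and passed no call; they were named after their values were seen. Among iron genes, where 9 of 25 rose and 5 fell (1 passed the filter through crotonate alone), and after median-of-ratios scaling 5 were higher and 8 were lower, the transferrin receptor gene Tfrc measured 89.6, 82.8, 107 and 65.7 and 35.5, 26.2, 30.4 and 32.97 TPM. Its groups do not overlap, which the rule for naming the largest falls requires. Steap3, which reduces iron in endosomes, rose from 1.82 ± 0.3 to 8.28 ± 0.711 TPM, Slc39a8, a metal importer, from 0.298 ± 0.135 to 3.42 ± 0.419 TPM, and Ncoa4, which delivers ferritin to lysosomes, from 90.5 ± 4.09 to 116 ± 5.75 TPM. Aco1, which as an iron regulatory protein binds the transferrin receptor and ferritin transcripts, fell from 63.7 ± 2.09 to 47.6 ± 1.08 TPM.

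Genes of central carbon metabolism were called in both directions, beside 31.6% of all tested genes that rose and 16.5% that fell. Of glycolysis genes 6 of 22 rose and 7 fell, with a median log2 difference of -0.04. Eno2, the enolase typical of neurons, rose from 10.1 ± 1.28 to 26.6 ± 3.86 TPM and Slc2a3, the neuronal glucose carrier GLUT3, from 15.2 ± 3.14 to 35.7 ± 2.87 TPM, while Ldha, a lactate dehydrogenase, and Pkm, a pyruvate kinase, fell from 683 ± 36.9 to 500.3 ± 46.7 TPM and from 939.6 ± 30.8 to 765 ± 25.97 TPM. Of tricarboxylic acid cycle and pyruvate entry genes 6 of 23 rose and 9 fell, and after median-of-ratios scaling 2 were higher, with Cs, the citrate synthase, falling from 451 ± 12.2 to 393 ± 12.8 TPM. Of 30 nuclear genes of the respiratory chain 4 rose and 6 fell, with Cox6a1 the largest gain in TPM, from 725 ± 44.96 to 909 ± 46.1 TPM.

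Most genes of antigen presentation rose. Of the MHC class I and antigen processing genes 16 of 21 rose and 2 fell (3 passed the filter through crotonate alone), with a median log2 difference of 1.19, and 12 of them rose at least 2-fold. Among all 14077 tested genes 31.6% rose, 16.5% fell and 887 genes rose at least 2-fold. H2-T23, a nonclassical class I gene, measured 1.15, 1.87, 1.21 and 1.54 TPM with DMSO and 7.701, 9.59, 9.73 and 10.02 TPM with crotonate, and H2-D1, a classical one, 20.6, 21.3, 19.8 and 23.003 and 46.8, 53.98, 55.6 and 50.4 TPM. In both, every crotonate library lay above every DMSO library. H2-Q7 rose from 5.11 ± 0.973 to 23.8 ± 3.19 TPM. These genes belong to a family of near copies, so reads may be divided among them and the value of each is uncertain. Psmb10 and Psme2, subunits of the immunoproteasome and its activator, fell from 32.7 ± 2.31 to 24.1 ± 2.73 TPM and from 53.8 ± 3.05 to 43.8 ± 3.53 TPM. Among class II genes 6 of 14 were tested, of which 4 rose and 0 fell. Of the rises 2 were at least 2-fold, and the largest log2 difference in the list was 3.61. H2-DMa, which loads peptides, rose from 3.56 ± 1.12 to 17.7 ± 2.21 TPM. Ciita, the switch of class II expression, and Cd74, the invariant chain, did not reach the level for testing. Markers of microglia summed to 5.68 to 8.91 TPM with DMSO and 4.52 to 12.2 TPM with crotonate. The part of such cells in these rises was not tested.

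Of 17 class I list genes with a known start, 3 had a Kcr peak within 1 kb in the DMSO list and 12 in the crotonate list, and 5 and 9 had a Kac peak. Over all tested genes with a known start the shares were 64.4% and 73.5% for Kcr and 72.8% and 68.5% for Kac. Over all genes that rose they were 50.6% and 71.6% for Kcr and 59.1% and 66.2% for Kac. The Y box letters CTGATTGG, which contain a CCAAT box, stood in 42.1% of the 19 promoters of the list beside 5.86% of those of tested genes. The promoters of H2-D1, which gained both peaks, and H2-T23, which had neither in either list, are shown with the Y box in capitals on the reverse strand, at nearly the same distance before the start:
H2-D1, chr17:35262844-35263143, plus strand: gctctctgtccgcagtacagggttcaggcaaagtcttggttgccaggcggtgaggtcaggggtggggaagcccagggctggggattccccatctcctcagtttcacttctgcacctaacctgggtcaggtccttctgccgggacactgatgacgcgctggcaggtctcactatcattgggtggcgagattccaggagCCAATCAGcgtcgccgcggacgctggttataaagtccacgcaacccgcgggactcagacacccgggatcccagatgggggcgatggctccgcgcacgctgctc
H2-T23, chr17:36032652-36032951, minus strand: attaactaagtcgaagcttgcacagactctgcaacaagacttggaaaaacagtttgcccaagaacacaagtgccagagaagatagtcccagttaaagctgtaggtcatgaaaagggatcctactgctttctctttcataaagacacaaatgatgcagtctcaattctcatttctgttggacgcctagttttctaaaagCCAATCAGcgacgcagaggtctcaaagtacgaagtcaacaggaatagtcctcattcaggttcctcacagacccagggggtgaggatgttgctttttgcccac

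Of interferon-stimulated genes 16 of 23 rose and 1 fell (4 passed the filter through crotonate alone), with a median log2 difference of 0.74. The shares over all tested genes were 31.6% and 16.5%. Bst2, which encodes the antiviral protein tetherin, measured 14.9, 9.34, 8.47 and 7.66 TPM with DMSO and 53.2, 61.2, 66.2 and 61.2 TPM with crotonate. The lowest crotonate value was well above the highest DMSO value. Trim25, a ubiquitin ligase of RNA sensing, rose from 2.97 ± 0.437 to 8.97 ± 0.432 TPM, and Gbp3, a guanylate-binding protein, fell from 5.21 ± 0.527 to 3.09 ± 0.5 TPM. Isg15, Ifit1, Ifit3, Irf7 and Mx1, other members of the list, did not reach the level for testing.

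Most extracellular matrix genes rose. Of collagens, laminins and matrix glycoproteins 23 of 34 rose and 2 fell (2 passed the filter through crotonate alone), with a median log2 difference of 0.64, beside 31.6% of all genes that rose. Col11a1, a fibrillar collagen, measured 10.4, 10.4, 8.6995 and 9.51 TPM with DMSO and 33.9, 34.5, 33.5 and 34.6 TPM with crotonate. Lamb1, a chain of laminin (chromosome 12, 31265146 to 31329644), measured 7.35, 5.15, 6.43 and 6.48 and 24.3, 22.4, 24.5 and 19.9 TPM. Neither gene overlaps between the groups. Nid1, which links laminin to collagen in basement membranes, went from 2.395 ± 1.41 to 18.9 ± 3.14 TPM; it was named after its values were seen. Mmp14, a membrane-bound matrix protease, rose from 26.5 ± 1.44 to 66.2 ± 7.59 TPM. Of the 26 genes of the list with a known start, 9 had a Kcr peak there in the DMSO list and 18 in the crotonate list. For Kac the numbers were 9 and 17. Over all tested genes with a known start the shares were 64.4% and 73.5% for Kcr and 72.8% and 68.5% for Kac. Over all genes that rose they were 50.6% and 71.6% for Kcr and 59.1% and 66.2% for Kac. The markers of pericytes and mesenchyme, which also make collagen, summed to 21.6 to 36.1 TPM with DMSO and 23.1 to 37.1 TPM with crotonate. None of the 6 tested was called, beside 48.1% of all tested genes, and with the replicate block 1 was called higher. The part of such cells in the matrix rises was not tested. Of glypicans, syndecans and heparan sulfate enzymes 12 of 19 rose and 0 fell, with a median log2 difference of 0.38, and after median-of-ratios scaling 1 was lower, with Gpc5 from 1.03 ± 0.294 to 4.21 ± 0.462 TPM and Sdc2 from 15.2 ± 1.03 to 26.8 ± 1.66 TPM. Of protocadherins and cadherins 16 of 27 rose and 3 fell (2 passed the filter through crotonate alone): Pcdh1 rose from 12.8 ± 0.756 to 23.3 ± 1.397 TPM and Cdh2, the N-cadherin of the neuroepithelium, fell from 109 ± 3.43 to 92.6 ± 4.11 TPM.

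Of the genes of radial glia and neural stem cells 5 of 28 rose and 3 fell, with a median log2 difference of 0.048, and after median-of-ratios scaling 9 were lower. Over all tested genes 31.6% rose and 16.5% fell. Fabp7, a fatty acid binding protein of radial glia, stood at 4814, 5068, 5122 and 4780.5 TPM with DMSO and 4546, 5086, 4952 and 5434 TPM with crotonate, with a 95% interval of the log2 difference from -0.10 to 0.13. Nes, the intermediate filament protein nestin, measured 346, 368, 396 and 358 and 226, 262, 277 and 228 TPM and fell with no overlap. Prom1, the stem cell surface protein prominin, rose from 8.51 ± 1.35 to 27.1 ± 1.72 TPM and Hopx, a marker of outer radial glia, from 80.2 ± 13.9 to 123 ± 15.5 TPM. Of Notch pathway genes 7 of 20 rose and 2 fell, with a median log2 difference of 0.043, with the ligand Jag2 from 2.13 ± 1.03 to 10.4 ± 1.03 TPM and the receptor Notch3 from 17.8 ± 3.29 to 34.1 ± 3.72 TPM among the rises, while the Notch targets Hes1 and Hes5 had log2 differences of 0.18 and -0.44 with adjusted p values of 0.205 and 0.172 in limma's test; both were named after their values were seen.

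Of the proneural and basal progenitor factors, 10 of 18 reached the level for testing. Eomes, Tbr1, Neurog1 and Neurog2, which mark cortical intermediate progenitors and new neurons, did not reach it. Of the 10 tested factors 2 rose and 2 fell, beside 31.6% and 16.5% of all tested genes. Insm1 and Myt1, zinc finger factors of neurogenesis, fell from 10.9 ± 0.64 to 7.21 ± 0.681 TPM and from 29.01 ± 3.898 to 19.9 ± 3.003 TPM, and Gadd45g rose from 53.2 ± 4.14 to 73.2 ± 9.52 TPM. Of ventral forebrain and GABAergic genes 6 of 11 rose and 0 fell (2 passed the filter through crotonate alone), with a median log2 difference of 0.64, and after median-of-ratios scaling 1 was lower: Gsx1, a homeobox factor of the ganglionic eminence, measured 16.7, 25.1, 19.9 and 26.9 TPM with DMSO and 47.2, 59.6, 48.8 and 54.7 TPM with crotonate, and Npas1, a factor of interneurons, 0.449, 0.476, 0.429 and 0.454 and 4.82, 3.35, 4.02 and 4.49 TPM. The groups of Gsx1 do not overlap, and those of Npas1 cannot under the rule for switched genes given below. Of dorsal forebrain and cortical neuron factors 9 of 18 rose and 1 fell (1 passed the filter through crotonate alone), and after median-of-ratios scaling 4 were lower, with Bcl11a from 4.16 ± 0.682 to 9.604 ± 0.558 TPM.

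Called signalling genes were mostly higher, as were 65.7% of the calls over all tested genes. Of all tested genes 31.6% rose and 16.5% fell. Of Wnt genes 16 of 29 rose and 0 fell (1 passed the filter through crotonate alone), with a median log2 difference of 0.29, and after median-of-ratios scaling 2 were lower. Sfrp1 and Sfrp2, secreted antagonists, went from 5.64 ± 0.718 to 19.8 ± 0.889 TPM and from 12.4 ± 1.264 to 32.1 ± 1.48 TPM, and Notum, an enzyme that inactivates Wnt proteins, from 0.528 ± 0.238 to 3.14 ± 0.559 TPM. Axin2, the usual readout of Wnt signalling, had a log2 difference of 0.032 and passed no call, named after its value was seen. Of Hedgehog genes 7 of 13 rose and 2 fell: Disp2 rose from 9.94 ± 0.762 to 35.4 ± 3.398 TPM and Ptch1, the receptor and a target of the pathway, fell from 23.98 ± 2.18 to 17.7 ± 0.818 TPM. Of the BMP and TGF-beta genes 12 of 23 rose and 3 fell (1 passed the filter through crotonate alone), and after median-of-ratios scaling 5 were lower. Tgfb1, which encodes the ligand TGF-beta 1, measured 1.004, 0.377, 0.246 and 0.61 TPM with DMSO and 5.44, 4.52, 5.795 and 3.25 TPM with crotonate, and the receptor gene Tgfbr1 fell from 23.8 ± 0.328 to 17.7 ± 1.11 TPM. No crotonate library of Tgfb1 reached down to the DMSO range. Among growth factor response genes, Egr1 rose from 204 ± 11.1 to 349.7 ± 23.9 TPM and Egfr, the receptor of one of the growth factors in the medium, fell from 89.8 ± 4.795 to 75.1 ± 3.795 TPM. Among nuclear receptor and retinoid genes, Aldh1a3, which makes retinoic acid, rose from 7.65 ± 1.36 to 16.8 ± 3.35 TPM and Nr4a2, an orphan receptor, from 2.48 ± 0.418 to 7.19 ± 3.07 TPM. Of 16 tested clock genes 1 rose and 1 fell.

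Most genes of excitability rose. Among all tested genes 31.6% rose and 16.5% fell, and among those with a mean under 5 TPM 40.9% rose and 2.78% fell. The part of transcript level in the rises of these lists was not tested. Of voltage-gated sodium and calcium channel genes 18 of 25 rose and 1 fell (3 passed the filter through crotonate alone), with a median log2 difference of 0.78, and after median-of-ratios scaling 2 were lower. Cacna1g, a T-type calcium channel, measured 3.998, 2.97, 3.19 and 6.25 TPM with DMSO and 22.7, 37.8, 26.2 and 29.9 TPM with crotonate, a log2 difference of 2.58 (SE 0.21). Scn3a, a sodium channel of the embryonic brain, measured 0.44, 0.501, 0.359 and 1.16 and 9.44, 6.97, 7.64 and 6.92 TPM. The groups lie far apart in both, which were picked for their small adjusted p. Of potassium channels 16 of 27 rose and 1 fell, with a median log2 difference of 0.58, and after median-of-ratios scaling 3 were lower, with Kcnk1 from 3.32 ± 0.418 to 10.3 ± 1.248 TPM and Kcnip3, a channel partner also known as DREAM, falling from 73.9 ± 8.86 to 56.5 ± 3.92 TPM. Of transmitter receptors 24 of 32 rose and 1 fell (4 passed the filter through crotonate alone), with a median log2 difference of 0.51. Gabra3, a GABA-A receptor subunit, measured 0.34, 0.435, 0.253 and 1.11 TPM with DMSO and 7.67, 11.6, 8.15 and 8.92 TPM with crotonate, and Gabbr1, an abundant GABA-B subunit, rose from 71.95 ± 3.19 to 102 ± 5.08 TPM.

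Of axon guidance genes 26 of 39 rose and 1 fell (2 passed the filter through crotonate alone), with a median log2 difference of 0.44, and after median-of-ratios scaling 3 were lower: Robo1, the receptor of Slit proteins, rose from 4.44 ± 0.259 to 13.8 ± 0.741 TPM, Efna3, an ephrin, from 7.22 ± 0.536 to 18.5 ± 2.24 TPM, and Plxnb1, a semaphorin receptor, fell from 22.8 ± 1.13 to 17.9 ± 1.702 TPM. The neuronal cytoskeleton was divided, for 17 of 28 rose and 8 fell (1 passed the filter through crotonate alone). Stmn1, a tubulin-binding protein abundant in dividing progenitors, measured 728, 743, 753 and 764 TPM with DMSO and 469, 445, 482 and 476 TPM with crotonate, while its relative Stmn3 rose from 102 ± 1.52 to 162 ± 5.68 TPM. Stmn1 was lower in all 4 crotonate libraries than in any control. Nefl, a neurofilament subunit of mature axons, rose from 1.87 ± 0.327 to 10.5 ± 0.954 TPM and Tubb4a, a beta-tubulin, from 7.93 ± 1.19 to 28.5 ± 1.85 TPM. Of RNA-binding proteins of neurons 8 of 18 rose and 5 fell (1 passed the filter through crotonate alone); Ptbp1, which holds back neuronal splicing in progenitors, fell from 181 ± 6.35 to 138 ± 7.08 TPM and Srrm4, which promotes it, had a log2 difference of 0.73 and rose, named after its value was seen. Of the neuron markers 10 of 13 rose and 2 fell (1 passed the filter through crotonate alone), although their summed level was lower with crotonate, as given above. The part of cell composition in these rises was not tested. Among astrocyte markers 6 of 17 rose and 3 fell, beside 31.6% and 16.5% of all genes. Clu rose from 32.1 ± 3.52 to 67.6 ± 7.09 TPM and Aqp4 from 5.75 ± 1.05 to 14.003 ± 2.41 TPM, and Aldoc, a glycolytic enzyme of astrocytes, fell from 69.3 ± 16.3 to 37.97 ± 7.76 TPM. Among markers of the oligodendrocyte lineage 5 of 12 rose and 0 fell, with Myrf from 2.05 ± 0.0493 to 7.67 ± 0.596 TPM.

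**Figure D4:**
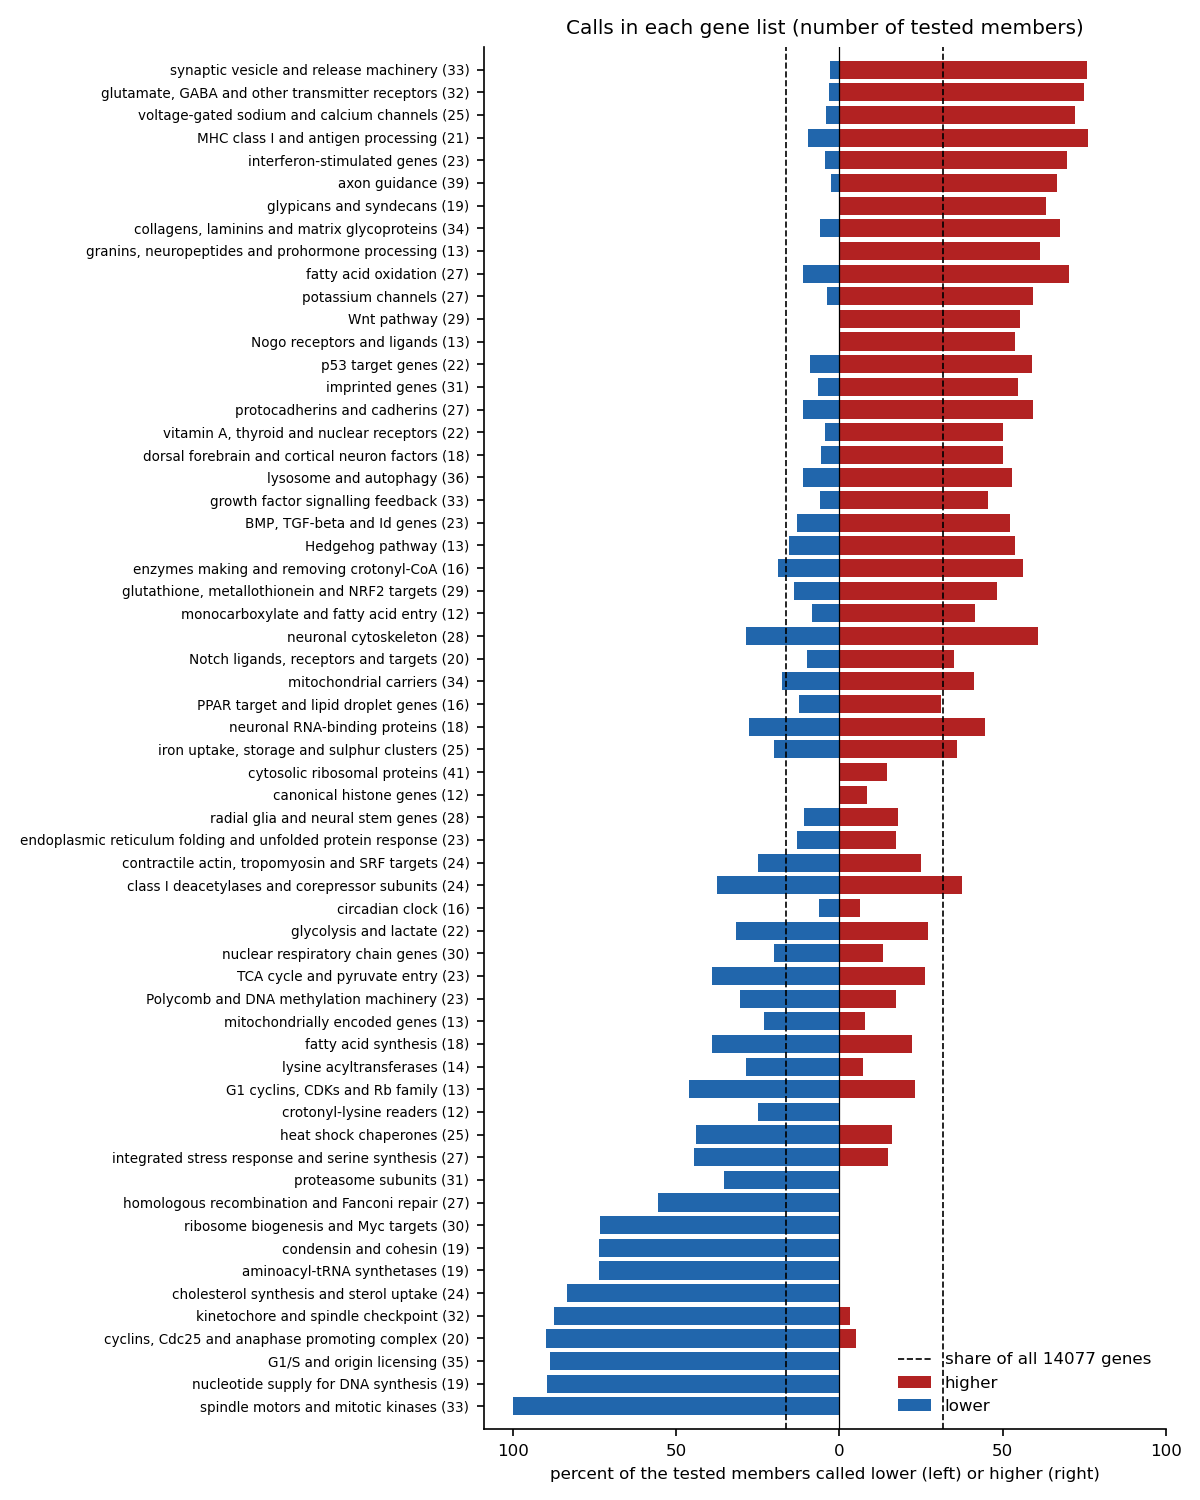
Share of the tested members of each gene list that rose (red, right) or fell (blue, left) with crotonate, for the lists with at least 12 tested members (number in brackets), with dashed lines at the shares over all genes, 31.6% and 16.5%. Lists of neuronal, matrix and antigen presentation genes stand at the top and those of cell division, sterol synthesis and tRNA charging at the bottom; the lists were chosen by function and overlap in part.

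A small set of genes crossed from near silence. By the rule of under 0.5 TPM in all 4 DMSO libraries and over 2 TPM in all 4 crotonate libraries, 21 genes were switched on and 0 were switched off. Rhd, a blood group gene, was listed at 0 in 3 DMSO libraries and at 0.0649 TPM in the fourth one and measured 3.35, 4.08, 4.98 and 3.62 TPM with crotonate. Slc38a4, an amino acid carrier, measured 0.0452, 0.191, 0 and 0.0904 and 2.84, 3.48, 3.92 and 2.62 TPM. Cox4i2, an isoform of a respiratory subunit used at low oxygen, measured 0.194, 0.183, 0.182 and 0.385 and 5.24, 3.67, 3.01 and 2.96 TPM. The rule that picked these 3 genes leaves no room for their groups to overlap. The others that the naming rule takes were Npas1, Phldb3, H2-M3, Guca1a, Slc39a8, Sfmbt2 and Dmc1, the last a recombinase of meiosis, and none of the 21 exceeded 5 TPM in the mean. At the other end, 623 of 7015 genes with at least 20 TPM (8.88%) had a 95% interval of the log2 difference within 0.15 of 0. The most abundant were Eef1a1, a translation factor, at 8481 ± 334 TPM with DMSO and 8904 ± 129 TPM with crotonate, Tpt1 and Fabp7, several ribosomal protein genes and Actg1, the cytoplasmic gamma-actin, at 2529 ± 74.4 TPM with DMSO and 2432 ± 66.8 TPM with crotonate. Tpt1 and Actg1 were called lower, at -0.11 and -0.14, after median-of-ratios scaling.

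The peak lists of Kcr and Kac were set beside the RNA calls. Each mark had 1 ChIP library per treatment, so these shares have no replicate and no test, and the lists carry no peak heights. They held 17669 Kcr peaks with DMSO and 23301 with crotonate, and 23427 and 21616 Kac peaks. Starts were known for 10411 tested genes. A Kcr peak lay within 1 kb of a start in 64.4% of them with DMSO and 73.5% with crotonate. Among genes that rose at least 2-fold the share was 17.8% and 59.1%, with 278 of 656 genes that had the peak only in the crotonate list. Kac moved the same way at these genes, from 23.5% to 51.5%, although over all genes its share was lower with crotonate (72.8% and 68.5%). Genes that fell were marked more often to begin with, 78.9% with Kcr and 85.5% with Kac in the DMSO lists, and 76.4% and 72.6% in the crotonate lists.

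Fewer starts of kinetochore and spindle genes held a peak of either mark in the crotonate lists than in the DMSO lists. Of 30 kinetochore genes with a known start, 19 had a Kcr peak with DMSO and 10 with crotonate, and 20 and 13 a Kac peak. Of 29 spindle motor and kinase genes the numbers were 15 and 12 for Kcr and 21 and 9 for Kac. Of 17 starts of cyclin, Cdc25 and anaphase promoting complex genes, 8 and 9 had a Kcr peak and 13 and 7 a Kac peak, so that only the Kac number was lower there. Cenpa, whose promoter is printed above, was marked by both with DMSO and by neither with crotonate, whereas Aurka kept both. The numbers rest on single libraries, and how far depth or the calling threshold of the lists moves them was not tested.

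**Figure D5:**
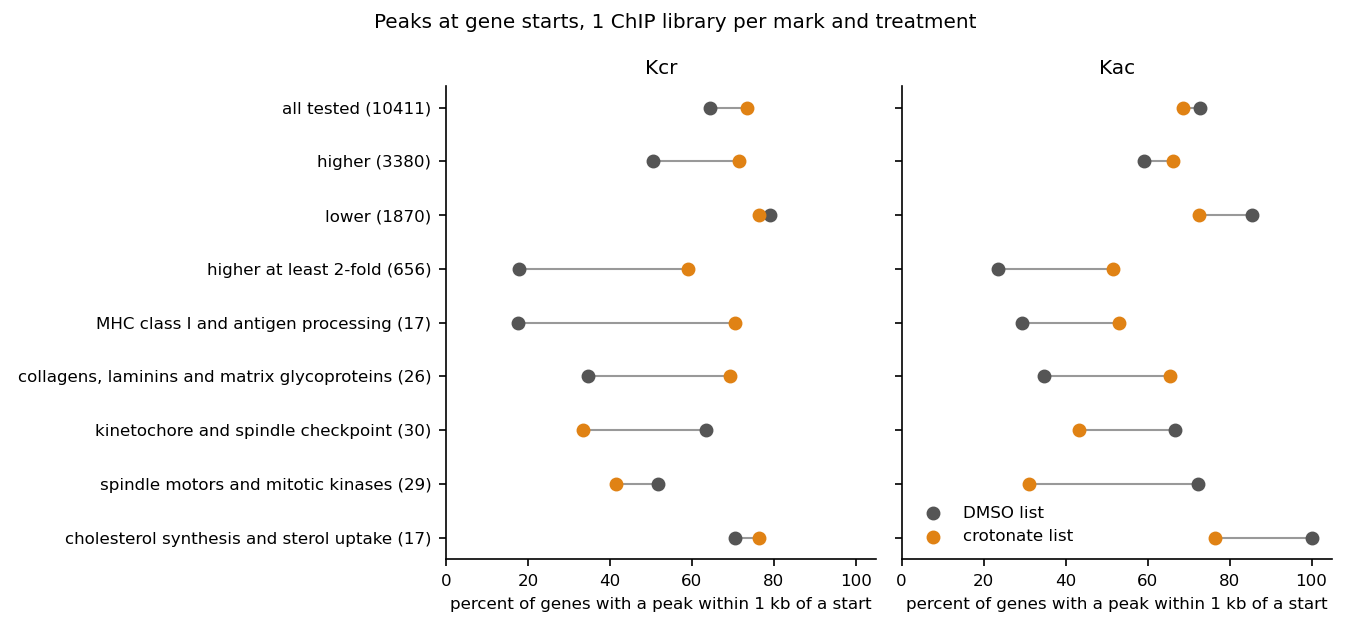
Percent of genes with a Kcr peak (left) or Kac peak (right) within 1 kb of a start in the DMSO list (grey) and the crotonate list (orange), for all tested genes, the called classes and 5 gene lists (number of genes with a known start in brackets). Genes that rose at least 2-fold move from 17.8% to 59.1% for Kcr, and the mitotic lists move to lower shares.

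The genes called in NSPCs were looked up in the comparison of crotonate with control in forebrain explants, tissue of another strain (ICR) with 3 libraries in each group, whose dose and time were not given in the labels. The values come from the authors' deposited table of DESeq2 results, whose direction is given only by its name and which holds no value per library. Of 12646 genes tested in NSPCs and with an explant mean above 16.2 normalized counts, 11.4% passed the authors' adjusted p of 0.05 as higher and 9.93% as lower. Of the 2265 of these that fell in NSPCs, 406 (17.9%) were lower and 246 (10.9%) higher in the authors' deposited table. The genes lower in both are 32.3% of the genes called lower in explants among these 12646. Of the 3907 that rose in NSPCs, 454 (11.6%) were higher and 296 (7.58%) lower, beside 11.4% and 9.93% of all genes. Among the 635 of these that rose at least 2-fold, 9.92% were higher and 8.35% lower. Whether NSPCs and explants differ was not tested, since no fit over both could be had.

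In the authors' deposited table Hmgcs1 had a log2 fold change of -0.24 (SE 0.017) in explants, Rrm2, the small subunit of ribonucleotide reductase, of -0.34 (SE 0.037) and Lig1 of -0.27 (SE 0.037), all past its adjusted p of 0.05 and lower as in NSPCs. Tfrc had -0.22 (SE 0.036) there, also lower. Meg3, which rose in NSPCs, had -0.13 (SE 0.029) there and was lower, and Tgfb1 -0.82 (SE 0.29) and Gsta4 -0.27 (SE 0.10) were lower as well. Tpm2, with -0.71 (SE 0.31), Slc7a10, with 0.24 (SE 0.40), and Cacna1g, with -0.023 (SE 0.045), passed no call in the authors' deposited table. Lamb1, with 0.24 (SE 0.063), was higher in both settings.

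MS-275, which blocks class I histone deacetylases, was given to the same kind of cells at 1 µM for 24 h. Its 4 libraries share the 4 DMSO libraries with the crotonate comparison, so the values are placed side by side with no test. Means with MS-275 were 12.7 ± 1.79 TPM for Slc7a10, 13.52 ± 1.21 TPM for Perp, 155 ± 4.997 TPM for Gsta4 and 53.2 ± 2.73 TPM for Cacna1g, beside 12.5, 14.98, 126 and 29.2 TPM with crotonate. Among genes that fell, Idi1 had 169 ± 26.7 TPM and Hmgcs1 711 ± 96.9 TPM with MS-275, beside 206 and 522 TPM with crotonate. Cenpe had 12.5 ± 1.41 TPM and Stmn1 332 ± 21.6 TPM with MS-275, beside 24.7 and 468 TPM. Of the 21 genes switched on with crotonate, 15 had a mean above 2 TPM with MS-275, and Slc38a4, at 0.998 ± 0.217 TPM, did not.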

How the data were processed

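RNA libraries were analysed from the deposited table of TPM, made by the authors; the submitters' processing notes list Salmon 1.0.0 and DESeq2 1.26.0 without role or order. No read counts were used and the depth is unknown. TPM was taken to log2(TPM + 1) and tested with limma 3.58.1 (empirical Bayes with trend, R 4.3.3) on the 8 libraries without a replicate block, for genes with at least 1 TPM in 4 or more, with Benjamini-Hochberg adjustment over all 14077. A pseudocount of 1 understates the folds of low genes. The explant values are log2 fold changes, standard errors, mean normalized signal, test scores and p-values from the authors' deposited table, used as given. Its adjusted p is listed as 1 where none was computed, so genes at or under the lowest mean with an adjusted p were left out. The deposited peak lists hold positions on GRCm38, listed with Bowtie2 2.3.5.1 and MACS2 2.2.5 in the submitters' processing notes; the calling threshold is not given in the sources used here. Promoters come from RefSeq (GRCm38.p6).

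The members and the gene lists were chosen with earlier results of these data known. Named genes were the 12 with the largest log2 differences and the 10 with the largest TPM differences in each direction, the 4 strongest members of each list and 2 of its other direction, up to 10 switched genes, all members of lists of at most 14, and the 10 most abundant with a narrow interval; not all are printed. The rules by largest log2 and TPM difference took only called genes whose groups do not overlap. The strongest members of a list were those with the smallest adjusted p, which also favours groups without overlap. Same-numbered libraries of both groups deviated together (r of 0.138 to 0.236 over 4 pairs, other pairs -0.184 to 0.0968), so by this check the numbers pair the libraries, although the labels do not say what a number marks. Tested on simulated data over 14077 genes, the procedure recovered 32% of 1.25-fold, 84% of 2-fold and 96% of 4-fold rises and 62% of falls to 0.5, and called 4 of 13877 unchanged genes. Only 50 genes were changed at each fold, with noise independent between libraries, whereas 48.1% of genes were called in the data. These rates therefore need not hold for this comparison. Alternatives were other pseudocounts, filters, scalings, the block, no trend, all 12 NSPC libraries and each library left out.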

Additional observations from a re-analysis of the deposited data

Results flagged for a closer look

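In 24 of 396 groups of 4 libraries, 1 library stood apart from the other 3 by Dixon's test at 95%, which chance does in about 1 in 20 groups. Among DMSO libraries the values that stood apart were 544 TPM for Apoe (median of the others 369), 10.1 TPM for Cdkn1c (median of the others 6.54), 5.66 TPM for Chac1 (median of the others 3.19), 0.385 TPM for Cox4i2 (median of the others 0.183) and 1.9003 TPM for Elovl7 (median of the others 2.66). Other such DMSO values were 38.6 TPM for Gins1 (median of the others 43.5), 205 TPM for Gstm1 (median of the others 171), 5.24 TPM for H2-DMa (median of the others 2.999), 4.23 TPM for Hdac11 (median of the others 6.05) and 38.5 TPM for Hmox1 (median of the others 31.1). Further DMSO values were 71.5 TPM for Kat5 (median of the others 58.8), 0.0649 TPM for Rhd (median of the others 0), 182 TPM for Rrm1 (median of the others 191), 167 TPM for Uhrf1 (median of the others 134) and 12900.3 TPM for mt-Nd1 (median of the others 12813). Among crotonate libraries the values were 4.11 TPM for Cdyl2 (median of the others 4.96), 25.5 TPM for Gdf15 (median of the others 19.3), 92.2 TPM for Hadh (median of the others 99.99), 15.7 TPM for Sirt5 (median of the others 12.5) and 93.1 TPM for Trp53 (median of the others 86.8). Other crotonate values were 31.2 TPM for Tubb4a (median of the others 27.5) and 11845 TPM for mt-Nd1 (median of the others 10986). Crotonate replicate 1 held 14595 genes of at least 1 TPM, beside a median of 14415 in the others. DMSO replicate 4 had 9.82% of TPM in ribosomal protein genes, beside 10.2%.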

How the results depend on the processing

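Genes called lower numbered 3520 under median-of-ratios scaling and 3689 under quantile normalization, where 3006 were higher. With the replicate block as a pairing term 4490 genes rose and 2314 fell, and with that block and median-of-ratios scaling 3523 were lower; the block ended no call of a gene named in the text. Leaving out 1 library gave 3652 to 4389 higher and 2050 to 2178 lower genes. The difference in genes detected then ranged from 852 to 946, and 3 against 4 libraries cannot reach an exact p of 0.05. With the replicate block, exchanging libraries within pairs, the difference of 899 genes had an exact permutation p of 0.125, the smallest that 4 pairs allow; this was added after seeing the data. Genes switched on numbered 4 from under 1 to over 5 TPM, and those switched off 0 to 1 with 1 library left out. Intervals within 0.10 of 0 were found for 87 genes. By sign alone 53.3% of NSPC rises and 58.1% of falls had that sign in explants. Within 500 bases of a start, the shares with a Kcr peak (DMSO, crotonate) and a Kac peak (DMSO, crotonate) were 48.8, 68.9, 57.4, 63.7% for genes that rose, 76.9, 73.96, 83.5, 70.4% for genes that fell and 62.5, 71.03, 70.95, 65.99% for all. Depth is unknown, and peaks rest on 1 library each.

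Of 175 called genes named in the text, median-of-ratios scaling ended the call of 5 and quantile normalization of 10 (Cdkn1c, Cdyl, Ckb, Hist1h2bc, Rb1, Rbl2, Sirt5, Srrm4, mt-Co1 and mt-Nd2), and none changed sign under either. Fitting with no filter ended 8 calls (Cdkn1c, Ckb, Hist1h2bc, Rb1, Rbl2, mt-Co1, mt-Cytb and mt-Nd1), with no trend 4 (Cdkn1c, Hist1h2bc, Rb1 and mt-Cytb) and over the 12 NSPC libraries 1 (Hist1h2bc). With a crotonate library left out, 161 of these genes still passed the filter, and with a DMSO library left out 174. Log2 differences of named genes without a call changed sign as follows; the cause was not tested. With median-of-ratios scaling the values were -0.051 for Axin2, -0.015 for Eef1a1, -0.071 for Fabp7 and -0.015 for Sox2. With quantile normalization the values were -0.018 for Axin2, -0.051 for Eef1a1, -0.036 for Mllt3, -0.29 for Slc7a11 and 0.016 for Srebf2. With the replicate block with median-of-ratios scaling the values were -0.051 for Axin2, -0.015 for Eef1a1, -0.071 for Fabp7 and -0.015 for Sox2. With 1 library left out the values ranged from -0.040 to 0.028 for Ccnd1, -0.026 to 0.060 for Fabp7 and -0.0061 to 0.21 for Mllt3. By limma, leaving out 1 library at a time ended the calls of Cdkn1c without DMSO 1, DMSO 2, DMSO 3, crotonate 1, crotonate 2 or crotonate 4 (adjusted p of 0.0652 to 0.111); Hist1h2bc without DMSO 1, DMSO 2, DMSO 3, crotonate 1, crotonate 2 or crotonate 4 (adjusted p of 0.0689 to 0.119); Rb1 without DMSO 1, DMSO 2, DMSO 3, crotonate 1, crotonate 3 or crotonate 4 (adjusted p of 0.071 to 0.0991); Rbl2 without DMSO 2, DMSO 3 or crotonate 2 (adjusted p of 0.0674 to 0.0703); Sirt1 without DMSO 3, crotonate 2 or crotonate 3 (adjusted p of 0.0508 to 0.0534); mt-Cytb without DMSO 1, DMSO 3, crotonate 2 or crotonate 4 (adjusted p of 0.052 to 0.0693); the numbers are those of the replicates.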
